A study of Arabidopsis thaliana with 6 samples.

Results

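The genes described here link the Arabidopsis thaliana circadian clock to growth, flowering and RNA processing, although RVE8, LNK1 and LNK2 act within the clock. The list holds 9 loci taken by locus tag, a choice made with earlier results of these data known. It consists of the REVEILLE genes RVE1, RVE2, RVE7 and RVE8, the genes LNK1 and LNK2, the cycling Dof factor gene CDF1, FKF1 and GRP7. All 9 were found among the 33518 genes of the table that sets PRE1-Ox/IBH1-Ox against IBH1-Ox. In the shorter table for IBH1-Ox against wild type, which holds 1547 called genes, 4 of them were listed: RVE2, LNK1, CDF1 and FKF1.

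The study sequenced mRNA from whole Col-0 seedlings, 6 libraries in 3 groups of 2, taken at 5 days from plates of diluted MS medium under constant light. The groups are wild type, IBH1-Ox (35S:IBH1-myc) and the double line PRE1-Ox/IBH1-Ox (35S:IBH1-myc/35S:PRE1-YFP). The double line therefore carries the IBH1 transgene of its control group, and the 35S promoter drives both transgenes in nearly all tissues. IBH1 represses cell elongation, and PRE1, also of the helix-loop-helix class, binds IBH1 and inhibits it. The labels give neither the hour of harvest nor the number of transgenic lines, and they do not say whether replicates were grown separately, so p-values measure the spread between these libraries, which may be technical.

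As background, REVEILLE proteins are Myb-like factors related to the morning clock proteins CCA1 and LHY. RVE8 and its close relatives RVE4 and RVE6 activate evening genes, and the LNK proteins bind RVE8 and act as its coactivators. CDF proteins repress the flowering gene CO, and FKF1 is a blue-light receptor and F-box protein that marks CDF1 for degradation together with GI. GRP7 is an RNA-binding protein that forms a feedback loop of its own downstream of the clock and regulates the splicing of its transcript and of that of its paralog GRP8.

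The deposited values are means of normalized counts over the libraries of a group, and the reads of each library were recovered from them. The libraries cannot be tied to replicate numbers, so each pair below is given with the library of the larger size factor (the scaling applied for depth) first. The recovered reads over genes came to 13918858 and 12187738 in IBH1-Ox and to 9506402 and 7979224 in the double line. For wild type, of which called genes alone are tabulated, they came to 1151302 and 783116. As a check of the labels, IBH1 stood at 179 and 138 normalized reads in wild type and at 11790 and 12997 in IBH1-Ox, and PRE1 rose from 125 and 135 in IBH1-Ox to 8465 and 8344 in the double line. IBH1 was also 1.49-fold higher in the double line than in IBH1-Ox in the authors' deposited table (adjusted p = 3.96e-08). Markers of shoot (RBCS1A, RCA, LHCB2.1) and root (PRP3, EXPA7, PIP2;4) were all present, with deposited means of 4612 to 338153 and 247 to 2161 in IBH1-Ox and the double line. The shoot markers did not move together: in the authors' deposited table LHCB2.1 was 4.98-fold lower in the double line (adjusted p = 6.37e-273), while RBCS1A and RCA were 1.25-fold and 1.43-fold higher (3.24e-08 and 4.83e-16). None of the 3 root markers passed that test. The seed storage gene CRC differed between the IBH1-Ox libraries, at 875 and 336 normalized reads, and stood at 91.5 and 67.6 in the double line. The oil body gene OLEO2 went the other way, from 80.5 and 76.0 to 197 and 208, and the part of residual seed RNA in the results was not tested.

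To show what stands in front of the genes, the 200 bases before the annotated gene start are printed for the members that hold a clock or light element there, and for GRP8, whose transcript moved with that of GRP7. They come from the RefSeq TAIR10.1 genome, are written 5′ to 3′ on the strand of the gene, and hold matches to the evening element (AAAATATCT, the site of CCA1, LHY and RVE proteins) or the G-box (CACGTG, a site of bHLH and bZIP factors) in capitals. Both strands were searched, and an evening element on the other strand reads AGATATTTT.
GRP7, minus strand of chr2:9266558-9266757: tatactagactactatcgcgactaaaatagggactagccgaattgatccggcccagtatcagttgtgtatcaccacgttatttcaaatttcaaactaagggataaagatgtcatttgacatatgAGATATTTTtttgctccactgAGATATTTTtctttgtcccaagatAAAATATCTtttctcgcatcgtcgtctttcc
GRP8, minus strand of chr4:18275217-18275416: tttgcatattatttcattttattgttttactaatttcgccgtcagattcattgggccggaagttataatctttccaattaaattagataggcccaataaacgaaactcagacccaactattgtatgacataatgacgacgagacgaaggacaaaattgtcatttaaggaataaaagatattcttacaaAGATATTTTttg
FKF1, plus strand of chr1:25508439-25508638: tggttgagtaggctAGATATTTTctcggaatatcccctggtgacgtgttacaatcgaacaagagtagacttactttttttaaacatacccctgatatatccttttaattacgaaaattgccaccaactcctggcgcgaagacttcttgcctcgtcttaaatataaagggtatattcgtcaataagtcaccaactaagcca
RVE7, minus strand of chr1:6308244-6308443: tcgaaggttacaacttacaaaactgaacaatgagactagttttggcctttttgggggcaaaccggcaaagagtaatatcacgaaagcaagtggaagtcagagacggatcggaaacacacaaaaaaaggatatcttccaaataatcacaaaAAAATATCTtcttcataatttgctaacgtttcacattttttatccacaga
RVE1, minus strand of chr5:5692993-5693192: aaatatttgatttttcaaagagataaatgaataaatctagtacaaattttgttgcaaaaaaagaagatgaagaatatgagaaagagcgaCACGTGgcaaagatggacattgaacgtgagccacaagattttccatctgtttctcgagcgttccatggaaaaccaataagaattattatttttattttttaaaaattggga
RVE2, minus strand of chr5:14753089-14753288: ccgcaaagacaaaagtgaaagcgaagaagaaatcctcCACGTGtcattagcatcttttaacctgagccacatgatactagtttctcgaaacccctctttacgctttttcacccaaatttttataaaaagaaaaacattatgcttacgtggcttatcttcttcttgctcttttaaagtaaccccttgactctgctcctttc

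Within 250 bases of the gene start, 3 of the 9 members held an evening element, against 2.36% of 27443 promoters of protein-coding genes searched alike. GRP7 held 3 copies, and its paralog GRP8 held 1. The G-box stood in front of 2 members, RVE1 and RVE2, against 6.49% of all promoters. The CCA1-binding site (AAAAATCT, 6.69% of promoters) stood in front of RVE2 alone among the members, at 244 to 237 bases before its start. None of these letters was found in that window of RVE8, LNK1, LNK2 or CDF1. Of 14 other members of these gene families, 1 held an evening element (GRP8). The G-box stood in front of 4 of them (CDF2, LNK3, RVE3 and RVE5), and the CCA1-binding site in front of 3 (CDF5, LKP2 and RVE6). A match describes the letters of the window and is not a measured binding site. Of the members with an evening element, GRP7 rose and RVE7 fell in the double line. FKF1 did not pass the authors' test, with a log2 fold change of 0.46 in limma-voom. GRP8 rose, and the reads behind RVE7 are uncertain, as described below. A link between the element and these directions was not tested.

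The comparison of the double line with IBH1-Ox asks what differs in seedlings that carry the PRE1 transgene beside that of IBH1. The IBH1 transcript was also 1.49-fold higher in the double line, and the number of lines is not given. Added PRE1, more IBH1 transcript and differences between lines therefore cannot be told apart. Of the 9 clock output genes 6 fell, 2 rose and 1 did not pass the authors' test at an adjusted p below 0.05. The genes that fell were LNK2, RVE7, LNK1, RVE1, CDF1 and RVE8, and those that rose were RVE2 and GRP7. Over all 24451 genes with a p-value in the authors' deposited table, 9.78% were lower and 12.7% were higher. The libraries of IBH1-Ox and the double line did not overlap in any of the 9 genes, but the same held for 62.2% of 24423 genes of that table, so non-overlap says little about the members. Log2 fold changes with a standard error (SE) were fitted with limma-voom to the recovered reads, a fit in which 38.1% of 19994 genes were called in either direction. They stand beside the adjusted p of the authors' test.

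**Figure D1:**
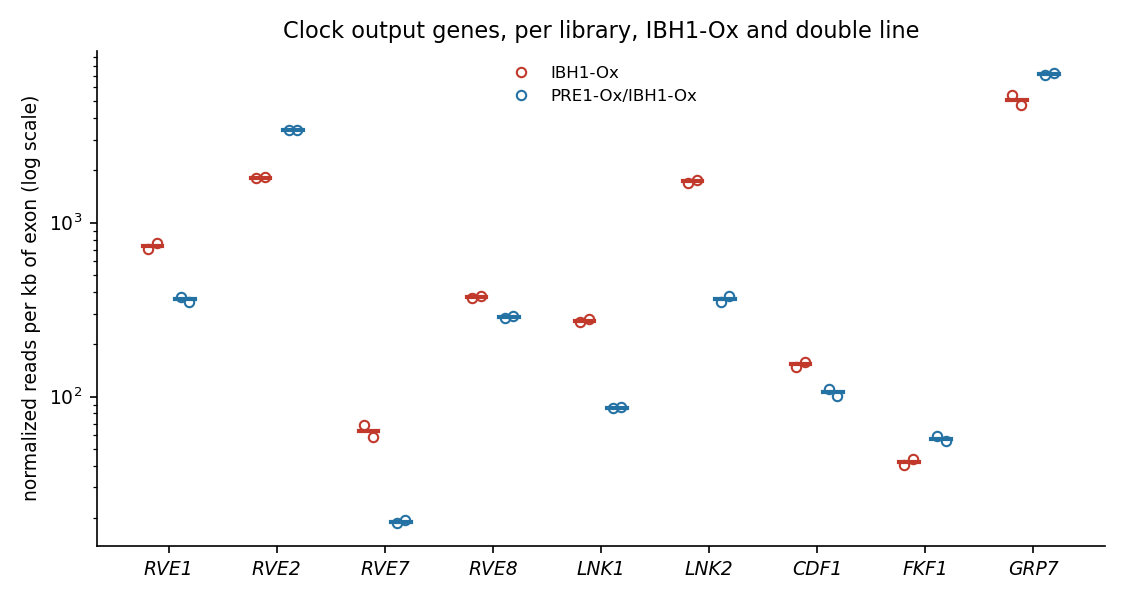
Normalized reads per kilobase of exon (log axis) of each clock output gene in IBH1-Ox (red) and the double line (blue). Circles are libraries and bars are means of 2 libraries; LNK2 drops from a mean of 1731 to 366 while RVE2 goes from 1813 to 3421.

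LNK1 and LNK2 encode the coactivators that work with RVE8, and they had some of the largest falls of the list. LNK2 (AT3G54500, minus strand of chr3:20175370-20179070) stood at 4971 and 5161 normalized reads in IBH1-Ox and at 1031 and 1112 in the double line. It fell by 2.24 ± 0.059 (SE, n = 2 per group, adjusted p of the authors' test 2.64e-58), a 4.73-fold lower mean in the authors' deposited table. LNK1 (AT5G64170, minus strand of chr5:25672466-25676823) stood at 714 and 743 normalized reads in IBH1-Ox and at 229 and 231 in the double line. It fell by 1.66 ± 0.10 (SE, n = 2 per group, adjusted p of the authors' test 5.9e-46). The libraries within each group lay far closer together than the groups did, with a ratio of at most 1.08 between libraries for either gene. The ratio of LNK2 to LNK1 per kilobase of exon was 6.35 and 6.33 in the IBH1-Ox libraries and 4.10 and 4.39 in those of the double line.

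The remaining genes of that family, which encode smaller LNK proteins, fell as well. LNK3 (AT3G12320) went from 342 and 344 normalized reads in IBH1-Ox to 85.2 and 90.1 in the double line, and LNK4 (AT5G06980) from 424 and 477 to 96.3 and 65.7. Their log2 fold changes were -1.96 ± 0.16 and -2.46 ± 0.18 (SE, limma-voom, n = 2 per group), with adjusted p of 1.23e-18 and 4.57e-55 in the authors' deposited table. Summed over LNK1 to LNK4, the libraries of IBH1-Ox held 6451 and 6725 normalized reads and those of the double line 1441 and 1499. Thus all 4 LNK genes passed the test as lower.

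Among the REVEILLE genes, the members went in different directions. RVE1 (AT5G17300, minus strand of chr5:5690225-5692992), a clock output factor known to promote hypocotyl growth through auxin synthesis, stood at 1429 and 1535 normalized reads in IBH1-Ox and at 758 and 710 in the double line. It fell by 1.01 ± 0.070 (SE, n = 2 per group, adjusted p of the authors' test 2.17e-22). RVE2 (AT5G37260, minus strand of chr5:14751344-14753088), also known as CIRCADIAN 1, is a close relative of RVE1. It went the other way, from 1766 and 1788 to 3356 and 3350 normalized reads, and rose by 0.92 ± 0.051 (SE, n = 2 per group, adjusted p of the authors' test 3.72e-36). Per kilobase of exon the level of RVE2 was 2.54 and 2.40 times that of RVE1 in the IBH1-Ox libraries and 9.12 and 9.71 times that of RVE1 in the double line. Ratios between genes are given as descriptions, with no test.

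RVE7 (AT1G18330, minus strand of chr1:6305814-6308243), named EPR1 for its early response to phytochrome, was the lowest of the REVEILLE members, at 139 and 119 normalized reads in IBH1-Ox and 37.9 and 39.4 in the double line. It fell by 1.72 ± 0.24 (SE, n = 2 per group, adjusted p of the authors' test 8.81e-11). The reads behind RVE7 are uncertain, because 61.9% of the 36-base words of its exons occur elsewhere in the genome, most of them in AT3G10113 on chromosome 3. That gene was listed at 0.479 in IBH1-Ox and at 0.789 in the double line and its neighbour AT3G10110, with fewer shared words, at 28.9 and 29.3. For the other members that share was at most 3.6% (RVE2). How reads with several alignments were counted is not given in the sources used here.

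RVE8 (AT3G09600, plus strand of chr3:2946239-2949017), the activator of evening genes, had the smallest change among the genes that fell. It stood at 869 and 886 normalized reads in IBH1-Ox and at 664 and 678 in the double line, and fell by 0.39 ± 0.071 (SE, n = 2 per group, adjusted p of the authors' test 0.00331). Its relative RVE4 (AT5G02840) went from 1455 and 1483 to 985 and 933 normalized reads and fell by 0.61 ± 0.063 (SE, limma-voom, n = 2 per group, adjusted p of the authors' test 3.16e-09). RVE6, the other activator of that group, was at 141 and 150 and at 169 and 154 normalized reads, and did not pass (log2 fold change 0.16, 95% interval -0.13 to 0.45, limma-voom). Of the remaining relatives, RVE3 rose (log2 fold change 0.83 ± 0.20, adjusted p of the authors' test 0.00821), and RVE5 did not pass (-0.01, 95% interval -0.26 to 0.23, limma-voom).

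**Figure D2:**
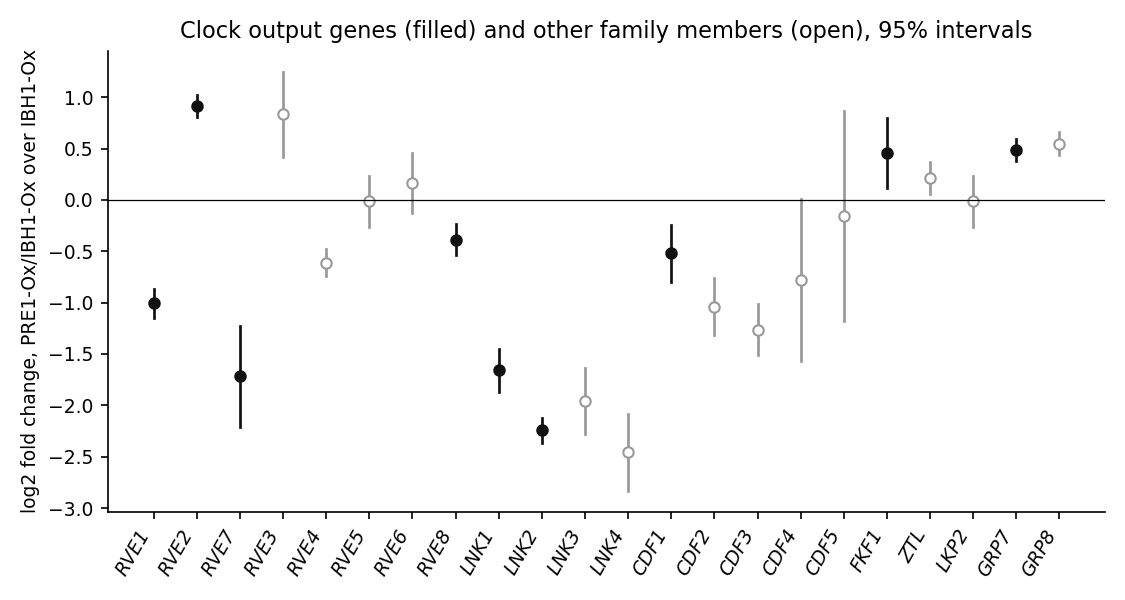
Log2 fold change of the double line over IBH1-Ox (limma-voom on recovered reads) with 95% intervals, for the 9 clock output genes (filled) and 13 of 14 other family members (open); CDF6 lay below the mean of 10 that the fit required. The 4 LNK genes lie at -1.66 or lower, RVE2 and RVE3 at 0.92 and 0.83, and GRP7 and GRP8 at 0.48 and 0.55.

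CDF1 and FKF1 act against each other in the control of flowering time. CDF1 (AT5G62430, minus strand of chr5:25069093-25071111) stood at 211 and 227 normalized reads in IBH1-Ox and at 158 and 145 in the double line. It fell by 0.52 ± 0.13 (SE, n = 2 per group, adjusted p of the authors' test 0.00735). In limma-voom its adjusted p was 0.00373, and 0.0566 without the double-line library of the smaller size factor (log2 fold change -0.46). FKF1 (AT1G68050, plus strand of chr1:25508639-25510907) stood at 87.2 and 94.7 normalized reads in IBH1-Ox and at 128 and 120 in the double line. It did not pass the authors' test (adjusted p = 0.0998), while limma-voom gave 0.46 ± 0.16 with an adjusted p of 0.0319, and 0.0355 to 0.222 with each library left out in turn. CDF1 stood 3.68 and 3.64 times above FKF1 per kilobase of exon in the IBH1-Ox libraries, and 1.88 and 1.83 times above it in the double line. In the wild-type libraries CDF1 stood 5.73 and 4.15 times above FKF1.

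Of the other CDF genes, CDF2 and CDF3 fell. CDF2 (AT5G39660) went from 337 and 401 to 196 and 158 normalized reads, and CDF3 (AT3G47500) from 403 and 418 to 159 and 184. Their log2 fold changes were -1.04 ± 0.13 and -1.26 ± 0.12 (SE, limma-voom, n = 2 per group), with adjusted p of 1.81e-10 and 1.07e-19 in the authors' deposited table. CDF4 and CDF5 did not pass, at deposited means of 24.8 and 13.0 in IBH1-Ox and 13.7 and 12.3 in the double line. CDF6 was called higher at an adjusted p of 0.0489 in the authors' deposited table, on 4 and 2 reads in IBH1-Ox and 4 and 12 in the double line. The double-line libraries of CDF6 differed 3.57-fold from each other. The relatives of FKF1, ZTL and LKP2, which bind clock proteins as F-box light receptors, had adjusted p of 0.122 and 1 in the authors' deposited table. Their log2 fold changes in limma-voom were 0.22 (95% interval 0.06 to 0.37) and -0.01 (-0.26 to 0.23). For ZTL the adjusted p in limma-voom was 0.0264, and 0.224 with total reads as library sizes.

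Among genes downstream of these factors, CO (AT5G15840), the flowering activator that CDF proteins repress, went from 27.8 and 22.0 normalized reads in IBH1-Ox to 64.7 and 71.4 in the double line. It rose by 1.43 ± 0.26 (SE, limma-voom, n = 2 per group, adjusted p of the authors' test 0.000179). FT, the flowering signal that CO switches on, had 0 reads in both IBH1-Ox libraries and 3 and 0 in the double line, too few to compare. The RVE1 targets YUC8, an enzyme of auxin synthesis, and PORA, an enzyme of chlorophyll synthesis, did not pass the authors' test (adjusted p = 0.0957 and 0.517), whereas limma-voom called both, YUC8 lower (log2 fold change -0.72, adjusted p = 0.00689) and PORA higher (1.28, 0.0224). YUC8 stood at 103 and 105 normalized reads in IBH1-Ox and 55.2 and 71.4 in the double line, and its adjusted p in limma-voom was 0.182 without the double-line library of the larger size factor. For PORA the IBH1-Ox libraries differed 6.73-fold, at 20.1 and 135 normalized reads, against 120.0 and 120.2 in the double line. Without the IBH1-Ox library of the larger size factor its log2 fold change was -0.17 (limma-voom, adjusted p = 0.52).

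GRP7 (AT2G21660, minus strand of chr2:9265084-9266557), the RNA-binding protein with 3 evening elements in its promoter, had the highest level of the list. It went from 6352 and 5547 normalized reads in IBH1-Ox to 8212 and 8440 in the double line and rose by 0.48 ± 0.052 (SE, n = 2 per group, adjusted p of the authors' test 6.16e-10). GRP8 (AT4G39260) went from 2033 and 1919 to 2910 and 2864 and rose by 0.55 ± 0.053 (SE, limma-voom, n = 2 per group, adjusted p of the authors' test 6.87e-10). The ratio of GRP7 to GRP8 per kilobase was 2.96 and 2.74 in the IBH1-Ox libraries and 2.68 and 2.80 in the double line, so these ranges overlapped. Of the 36-base words of their exons, 0.365% and 0.386% occur elsewhere in the genome.

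**Figure D3:**
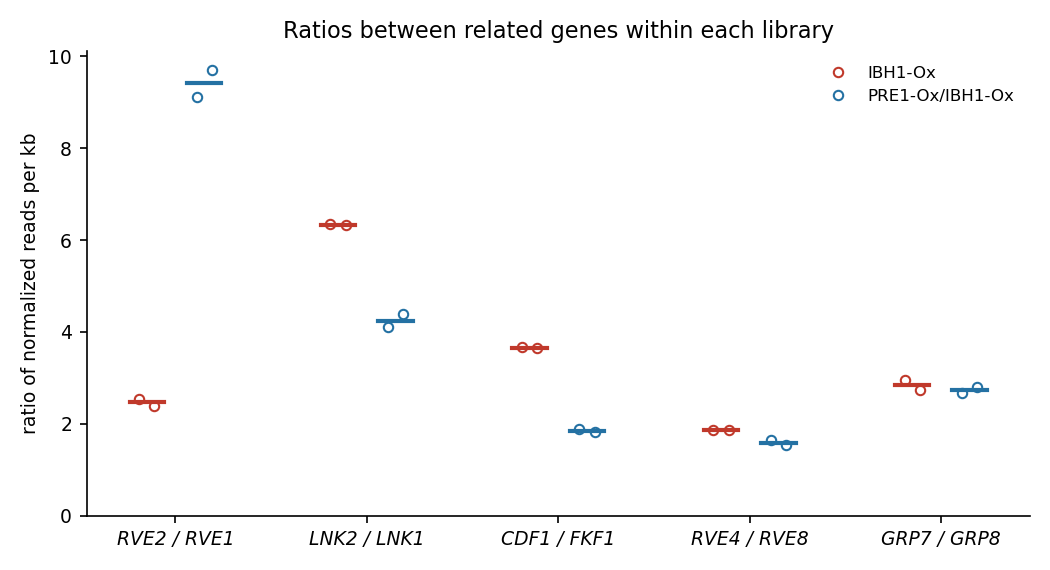
Ratio of normalized reads per kilobase of exon between related genes within each library, for IBH1-Ox (red) and the double line (blue); circles are libraries and bars are means of 2. RVE2 over RVE1 goes from 2.54 and 2.40 to 9.12 and 9.71, CDF1 over FKF1 from 3.68 and 3.64 to 1.88 and 1.83, and GRP7 over GRP8 overlaps between groups.

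Per kilobase of exon, the order of the levels in IBH1-Ox was GRP7 (mean 5107 normalized reads per kilobase), RVE2 (1813), LNK2 (1731), RVE1 (735), RVE8 (374), LNK1 (273), CDF1 (153), RVE7 (63.6) and FKF1 (41.9). No neighbours in this order overlapped between libraries. In the double line the order was GRP7 (7147), RVE2 (3421), LNK2 (366), RVE1 (364), RVE8 (286), CDF1 (106), LNK1 (86.2), FKF1 (57.2) and RVE7 (19.1). LNK2 and RVE1 overlapped there, and the other neighbours did not. LNK2 thus stood just below RVE2 in IBH1-Ox and overlapped RVE1 in the double line, while CDF1 stood above LNK1 and FKF1 above RVE7 in the double line alone. The exon lengths are those of TAIR10.1 and may differ from the models the authors counted.

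Over the 14 other members of these families, 5 fell, 3 rose and 6 did not pass the authors' test, with a median log2 fold change of -0.05, against -0.01 over 22722 genes of the table that have reads in both groups. The 5 were LNK3, LNK4, CDF2, CDF3 and RVE4. Of 13 core clock genes 5 fell and 4 rose, with a median of 0.15. Those that fell were PRR7, PRR9, the morning genes CCA1 and LHY, and GI, the partner of FKF1. Those that rose were BOA, ELF4, PRR3 and TOC1. In the authors' deposited table PRR7 had a log2 fold change of -2.04 (adjusted p = 2.2e-68), CCA1 -1.06 (8.93e-13) and LHY -0.94 (4.12e-14). TOC1 and PRR5, evening genes that RVE8 is known to activate with the LNK proteins, had 0.23 (adjusted p = 0.0355) and 0.33 (0.0953, not called) in the authors' deposited table. In limma-voom the adjusted p of TOC1 was 0.00622, and 0.104 and 0.0674 without either double-line library. PRR5, ELF3, LUX and CHE did not pass the authors' test. Of these, limma-voom called PRR5 and ELF3 higher (log2 fold change 0.34 and 0.21, adjusted p = 0.0279 and 0.0117). With total reads as library sizes their adjusted p in limma-voom was 0.113 and 0.183. The part that the 9 core clock genes called by the authors' test had in the changes of their output genes was not tested.

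The comparison of IBH1-Ox with wild type asks what differs in seedlings that overexpress IBH1 without the PRE1 transgene. PRE1 itself was 2.37-fold higher in IBH1-Ox than in wild type in the authors' deposited table (adjusted p = 6.68e-10). Its part in the results was not tested. Of the 9 clock output genes, the authors' deposited table listed 3 as lower (CDF1, LNK1 and FKF1) and 1 as higher (RVE2), where a gene needed an adjusted p under 0.05 and a 1.5-fold difference. By that rule 3.03% of the 24762 tests implied by the listed p-values were lower and 3.22% were higher. RVE1, RVE7, RVE8, LNK2 and GRP7 were not listed there, which does not show that they did not differ, because the table holds called genes alone. Markers of other organs moved in this comparison as well. In the authors' deposited table the root markers PRP3 and EXPA7 were 1.76-fold and 1.62-fold higher in IBH1-Ox (adjusted p = 0.0206 and 0.0397), and OLEO2 was 3.82-fold lower (1.8e-05). PIP2;4, CRC and the 3 shoot markers were not listed, and the part of these differences in the results was not tested. The tables were scaled separately, so the IBH1-Ox libraries have other normalized values here than in the comparison above, from the same reads.

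CDF1 stood at 550 and 471 normalized reads in wild type and at 236 and 254 in IBH1-Ox, with a log2 fold change of -1.06 in the authors' deposited table (adjusted p = 4.21e-16). LNK1 stood at 1519 and 1375 in wild type and at 798 and 831 in IBH1-Ox, with -0.83 in the authors' deposited table (adjusted p = 7.65e-22). In both genes each wild-type library lay above each IBH1-Ox library, which a table of called genes alone makes likely for any gene in it. FKF1 stood at 146 and 172 normalized reads in wild type and at 97.4 and 106 in IBH1-Ox, with -0.65 in the authors' deposited table (adjusted p = 0.00346). Without the wild-type library of the smaller size factor the log2 ratio of FKF1 was -0.52, under the fold limit of that table. RVE2 was the member that rose, from 1053 and 1023 in wild type to 1973 and 1999 normalized reads in IBH1-Ox, with 0.94 in the authors' deposited table (adjusted p = 1.07e-24).

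**Figure D4:**
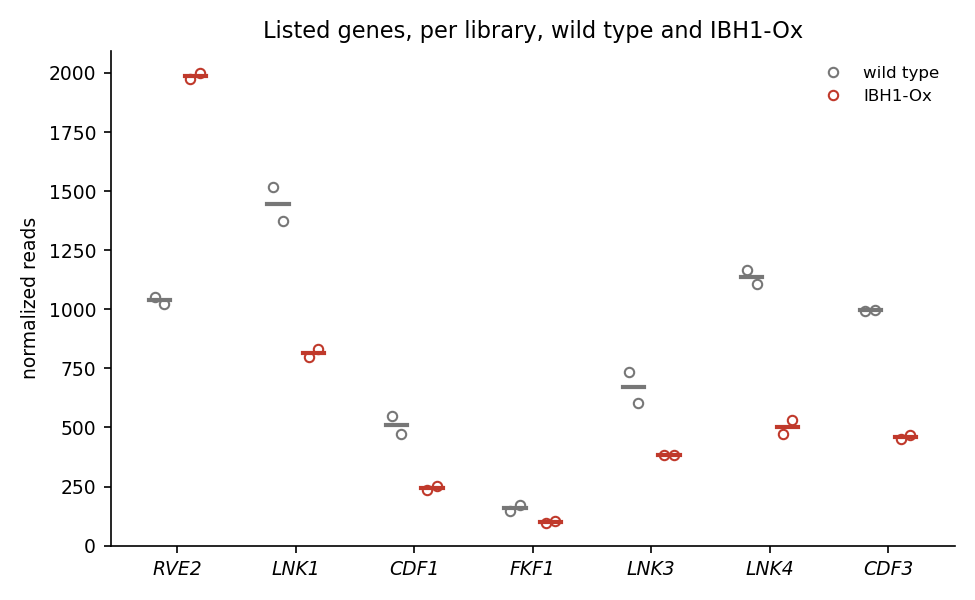
Normalized reads of the listed members RVE2, LNK1, CDF1 and FKF1 and of LNK3, LNK4 and CDF3 in wild type (grey) and IBH1-Ox (red); circles are libraries and bars are means of 2. RVE2 is higher in IBH1-Ox and the other 6 genes are lower. In 100% of the 1544 genes listed there whose reads could be recovered the groups did not overlap, as the table holds called genes alone.

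Of the 14 other family members, the authors' deposited table listed 5 as lower and none as higher. LNK3 went from 737 and 605 normalized reads in wild type to 382 and 384 in IBH1-Ox (adjusted p = 5.77e-06 in the authors' deposited table), and LNK4 from 1167 and 1106 to 474 and 533 (4.47e-35). CDF3 went from 994 and 998 to 451 and 468 (8.65e-30). CDF5 and CDF6 were lower as well, at deposited means of 46.8 and 31.9 in wild type against 14.5 and 3.37 in IBH1-Ox. CO, repressed by the CDF proteins, was lower too, at 56.4 and 59.7 normalized reads in wild type and 31.0 and 24.6 in IBH1-Ox (adjusted p = 0.0243 in the authors' deposited table). Of the 13 core clock genes 5 were listed as lower (PRR9, PRR7, CHE, PRR5 and GI) and 1 as higher (PRR3).

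Set side by side, the comparisons share the IBH1-Ox libraries, so their values are not independent. RVE2 had a log2 fold change of 0.94 in the first and 0.92 in the second in the authors' deposited tables, higher at each step. LNK1 had -0.83 and -1.66, and CDF1 had -1.06 and -0.53, lower at each step. LNK3, LNK4 and CDF3 were also lower at each step. FKF1 had -0.65 and 0.45, of which the second did not pass the authors' test. CO was lower in IBH1-Ox than in wild type and higher in the double line than in IBH1-Ox, with -1.06 and 1.45 in the authors' deposited tables.

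The genes most like each listed member were sought among 999 genes listed in both tables with a deposited mean of at least 50 in every group. Likeness was measured as the Euclidean distance between the pairs of log2 fold changes, which rest on 3 group means. The 3 nearest to RVE2 were ZFHD1 (distance 0.15), AT2G37870 and COL9 (both 0.21). Nearest to LNK1 were CDEF1 (0.13), BBX28 (0.15) and ABCB21 (0.22). GAI (0.03), AT3G06868 (0.03) and PATL1 (0.03) lay nearest to FKF1, and AT5G02540 (0.03), AT3G45410 (0.04) and AT2G29670 (0.06) to CDF1. For those last 3 genes and AT3G06868 the fold change in the double line did not pass the authors' test.

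Genes on the opposite strand overlap the exons of 4 members in the TAIR10.1 annotation, by 245 bases for LNK1, 225 for RVE1, 93 and 44 for LNK2 and 21 for FKF1. Among the other listed genes the longest such overlaps were 1679 bases for BOA, 1154 for CDF5, 738 for CO, 698 for LUX, 681 for RVE5 and 370 for LKP2. Whether the counting used strand is not given in the sources used here, so reads from these stretches cannot be assigned. In RNA of whole seedlings, fewer cells that express a gene and less RNA per cell cannot be told apart. As the hour of harvest is not given, a shift in the timing of a clock-controlled gene and a change of its level cannot be told apart either.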

How the data were processed

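The authors used TopHat, DESeq and TAIR10, per the submitters' processing notes (no versions given). Per the file headers, the authors deposited base means (a signal: gene counts divided by size factors, averaged over 2 libraries), their ratio as a fold change, its log2 value, and p-values with adjusted p-values. The table against wild type lists called genes only. The other holds 5 entries of no gene (15.1% and 12.5% of the signal), which were left out.

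Each mean was split into the 2 whole read counts that gave it (rounding of 10 digits, at least 2e-09, plus a relative 1e-10, set while looking at these tables); 99.8% to 99.97% of means above 0 split into 1 pair. For IBH1-Ox, the tables gave the same reads in 1545 of 1545 genes. Between the libraries of a group a mean chi-square was taken over genes with at least 20 reads, where sampling noise gives about 1. In the table of all genes it was 1.23 (double line) and 2.26 (IBH1-Ox). In the table of called genes it was 2.91 (IBH1-Ox) and 3.68 (wild type), so wild type and the double line are not compared on the same genes. No libraries were merged as duplicates.

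The main test is the authors' own, at an adjusted p below 0.05. limma-voom (limma 3.58.1, R 4.3.3), with their size factors as library sizes, was fitted to 19994 genes of mean 10 or more, with Benjamini-Hochberg adjustment; the scripts were tested on simulated data. Gene models and promoters come from RefSeq TAIR10.1. All members and listed relatives are named. Members and lists were chosen with earlier results of these data known.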

Additional observations from a re-analysis of the deposited data

How the results depend on the processing

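Of the 9 clock output genes, 8 passed the authors' test between the double line and IBH1-Ox, where 12.7% of 24451 genes were higher and 9.78% lower. Of the members, 5 also had a fold of at least 1.5 (RVE1, RVE2, RVE7, LNK1 and LNK2), for which no share over all genes was computed. In limma-voom 9 passed, where 38.1% of 19994 genes were called. With no filter on low means 9 passed as well, where 4243 of 24423 genes were higher and 3493 lower. With total reads as library sizes 8 passed. That scaling moved the median of all genes to -0.105 on the log2 scale and the calls from 4156 higher and 3456 lower to 3004 and 5331, and no member changed direction; TOC1, higher in the authors' test, had an adjusted p of 0.109 there (limma-voom). With each library left out in turn, every member kept its direction, but CDF1 and FKF1 did not pass in every such fit. The log2 fold change ran from -0.59 to -0.46 for CDF1 and from 0.39 to 0.51 for FKF1. In these fits a lone library is assumed to vary like the others. Against wild type, 4 members were listed, also at an adjusted p below 0.01, and 1 (CDF1) at a fold of at least 2. There 3 to 4 members kept a fold of at least 1.5 with each library left out, a value with no test. For these other settings against wild type no share over all genes was computed, so the counts are description only. With a pseudocount of 10 the log2 fold changes of LNK1 and RVE7 in the double line were -1.62 and -1.51. No paired analysis was possible because the deposited means carry no replicate numbers. Depth limits CDF4, CDF5, CDF6 and FT, which had few reads. Reads were also few for RVE7 (24 and 21) and PRR9 (10 and 9) in the double line, and for CO (29 and 20) in IBH1-Ox.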
